A study of Mus musculus with 25 samples.

Results

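The type I interferon-stimulated genes described here are 43 genes, chosen by name, whose transcription is known to be induced by interferon alpha and beta. The RNA-seq table has 23116 genes and holds all 43 by symbol, and all 43 had a mean level of at least 0.1 FPKM (fragments per kilobase of gene length, scaled by the total fragments of the library) over the 6 libraries, the minimum for testing. The RNA came from HSLAM cells, bone marrow cells sorted as LSK+ CD150+ CD48-, a gate that is rich in hematopoietic stem cells. The comparison was between genotypes, with 3 libraries from 3 mice each, and the question was how transcription changes when the zinc finger protein ZNF143 (gene symbol *Zfp143*) is deleted. The *Znf143 f/f* group was *Znf143 f/f* x *Rosa26ERT2-Cre*-, and the *Znf143 -/-* group was *Znf143 f/f* x *Rosa26ERT2-Cre*+. Both groups carried loxP sites around exon 1 of *Znf143*, both were male mice of 8 to 12 weeks with the strain given as C57BL/6, and both received a middle dosage of tamoxifen for 10 days. The control mice lacked Cre, so that the activity of Cre itself and the loss of *Znf143* cannot be told apart. The *Rosa26* locus is active in nearly all tissues, so that an effect from within the sorted cells and one from other deleted cells cannot be told apart. The labels of the *Znf143 -/-* libraries name a CTCF knockout, while the study and the level of *Zfp143* give the genotype used here.

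Type I interferons bind the receptor made of IFNAR1 and IFNAR2, whose kinases JAK1 and TYK2 phosphorylate STAT proteins, STAT2 among them. STAT2 and IRF9 are part of the complex ISGF3, which binds the interferon-stimulated response element (ISRE) in the promoters of its target genes. The products of these genes block viral replication, sense nucleic acids, or tune the response itself, as IRF7 does by raising interferon production and USP18 does by damping the receptor. In hematopoietic stem cells, type I interferon is known to change cell cycle entry, and stem cells are known to hold a basal level of many interferon-stimulated genes. One of the gate's own antigens, Sca-1 (gene *Ly6a*), is itself interferon-induced.

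The ISRE core, which is GAAA followed after any 2 bases by GAAA and was searched on both strands, was found in the RefSeq promoter window (250 bases before to 50 after a transcript start, GRCm38.p6) of 17 of the 34 members with an entry (50%). A member counts if any of its windows holds it, and 8 members had several windows. Counted in the same way, 3.99% of all 27025 genes held it. The stretches below are shown because they carry the element in members that rose and in members that were not called. Each runs 5′ to 3′ in the direction of the gene, with the core and its overlapping copies in capitals; where the core lies on the opposite strand it is read as TTTC, any 2 bases, TTTC.
*Ifit1* (chr19:34640773-34640825, + strand): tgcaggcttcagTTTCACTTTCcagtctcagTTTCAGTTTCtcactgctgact
*Ifit3* (chr19:34583361-34583428, + strand): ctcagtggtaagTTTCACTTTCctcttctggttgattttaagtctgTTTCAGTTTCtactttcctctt
*Ifit3b* (chr19:34607757-34607824, + strand): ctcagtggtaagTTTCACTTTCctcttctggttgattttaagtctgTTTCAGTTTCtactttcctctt
*Oas1a* (chr5:120907526-120907557, - strand): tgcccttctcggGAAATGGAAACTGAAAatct
*Isg15* (chr4:156200863-156200908, - strand): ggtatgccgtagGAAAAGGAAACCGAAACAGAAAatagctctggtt
*Gbp3* (chr3:142559987-142560026, + strand): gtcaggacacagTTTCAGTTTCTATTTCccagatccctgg
*Gbp2* (chr3:142620592-142620625, + strand): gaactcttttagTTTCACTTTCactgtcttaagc
*Bst2* (chr8:71537575-71537614, - strand): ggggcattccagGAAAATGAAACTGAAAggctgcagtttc

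The stretches of *Ifit3* and *Ifit3b*, neighbouring copies of one gene, were identical at 68 of 68 bases. *Isg15* held 3 overlapping copies of the core, *Oas1a*, *Gbp3* and *Bst2* held 2 overlapping copies, *Ifit1*, *Ifit3* and *Ifit3b* held 2 separate copies, and *Gbp2* held 1. No entry was found for *Oas2*, *Usp18*, *Mx1*, *Mx2*, *Parp9*, *Parp14*, *Ifi204*, *Rtp4* and *Ifi27*.

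Fragments assigned to genes numbered between 38643255 and 57895793 per library. *Zfp143* was at 3.06, 4.03 and 3.63 FPKM in the *Znf143 f/f* libraries and at 0.145, 0.303 and 0.273 FPKM in the *Znf143 -/-* libraries. Its log2 fold change was -3.46 ± 0.24 (SE, n = 3 and 3; limma, adjusted p = 0.00119). All 12 stem cell markers examined had a row and were tested, and they are described with those of other cell types.

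The 3 libraries of a genotype were not equally distant from each other. A chi-square statistic per gene on the fragments, which is 1 on average under sampling noise alone, was 5.05 between the first and the third *Znf143 f/f* libraries, and 102 and 88.1 between the second and these. It was 6.95 between the second and the third *Znf143 -/-* libraries, and 130 and 101 between the first and these. Between genotypes it lay between 80.1 and 209. The second *Znf143 f/f* library and the first *Znf143 -/-* library therefore stood as far from their own genotype as libraries of different genotypes stood from each other. Both close pairs differed by more than the sampling noise, so they were kept as separate samples. The labels do not say whether the libraries of a pair share a litter, a sort or an RNA sample, and the p-values measure only the spread between these libraries, which may be technical. Across the 43 members the median absolute difference on the log2 scale was 0.06 within each close pair, and between 0.20 and 0.32 for the other pairs of one genotype. Results are therefore given with 6 separate libraries. Those with each close pair averaged into 1 sample (2 samples per genotype) are given for the members together and for some single genes.

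Of the 43 interferon-stimulated genes, 14 rose in *Znf143 -/-* HSLAM cells (limma on log2(FPKM + 0.1), Benjamini-Hochberg adjusted p under 0.05 over 19212 tested genes), none fell and 29 were not called. Those that rose were *Irf7*, *Ifit1*, *Ifit3*, *Oas1a*, *Oas2*, *Oasl1*, *Usp18*, *Mx2*, *Gbp3*, *Ifi204*, *Ifitm3*, *Rtp4*, *Ifi27* and *Ifi44*. *Ifi204* reached the minimum level for testing through the *Znf143 -/-* libraries alone, so its call is no support. Without it 13 of 42 members were called, and their median log2 fold change was 0.44. The 14 are 32.6% of the members, where 2.81% of all tested genes were called higher and 2.38% lower. At an unadjusted p under 0.05, 22 members were higher and 1, *Ifit2*, was lower, where 12.5% and 9.99% of all tested genes were. Limma's voom on the recovered fragments also called 14 higher and 0 lower. With each close pair averaged, *Irf7* was the 1 member called. The other 13 of those that rose were then not called, with adjusted p-values between 0.0795 and 0.484. The same fit called 67 of all genes, in place of 997.

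The direction was more uniform than the calls. The log2 fold change was above 0 in 38 members and below 0 in 5, namely *Irf1*, *Ifit2*, *Gbp2*, *Dtx3l* and *Bst2*. These numbers were also 38 and 5 with the close pairs averaged, a fit of the same 6 libraries and so no separate support. In fits with 1 library left out the sign turned for *Gbp2*, *Dtx3l*, *Ifi203*, *Ifitm1*, *Samd9l* or *Trim30a*. Without both libraries that stand apart it turned for *Mx1*, *Ifi203*, *Ifitm1* and *Samd9l*. With the 6 libraries separate, the members' median was 0.45 on the log2 scale, beside 0.03 over all tested genes, of which 53.5% were above 0. In 28 members every *Znf143 -/-* library was above every *Znf143 f/f* library, in 1 (*Ifit2*) every one was below, and in 14 the genotypes overlapped. Of all tested genes, 15.8% did not overlap in the higher and 13.5% in the lower direction. The 29 members not called had a median log2 fold change of 0.26, and 24 of them were above 0. In bulk RNA, more cells that hold these transcripts and more transcript per cell cannot be told apart.

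**Figure D1:**
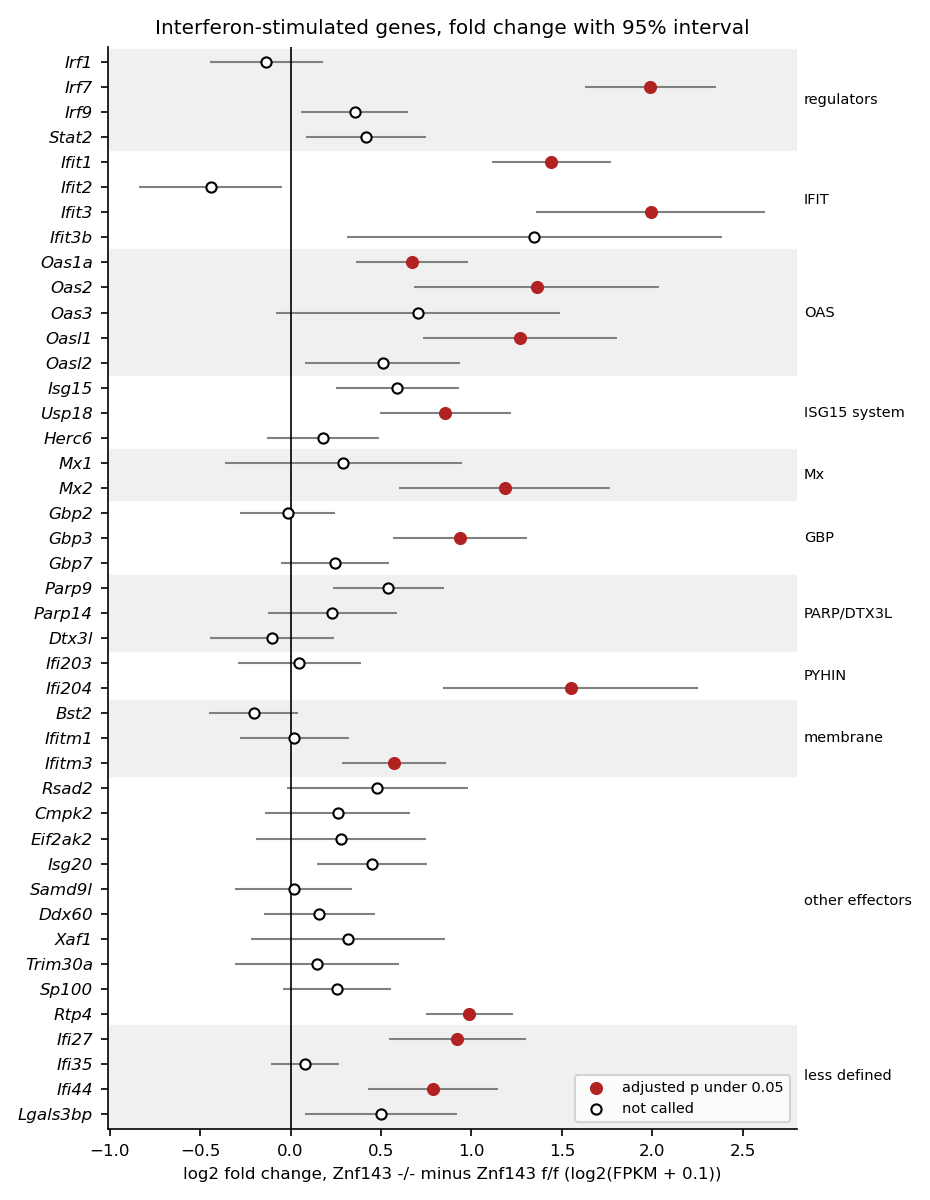
Log2 fold change of each of the 43 interferon-stimulated genes (*Znf143 -/-* minus *Znf143 f/f*, on log2(FPKM + 0.1)), with the 95% interval of the limma fit as a line, n = 3 and 3, grouped by role. The 14 members with an adjusted p under 0.05, in red, all lie above 0, with *Irf7* and *Ifit3* at 1.99, and 5 of the members not called, with open symbols, lie below 0.

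**Figure D2:**
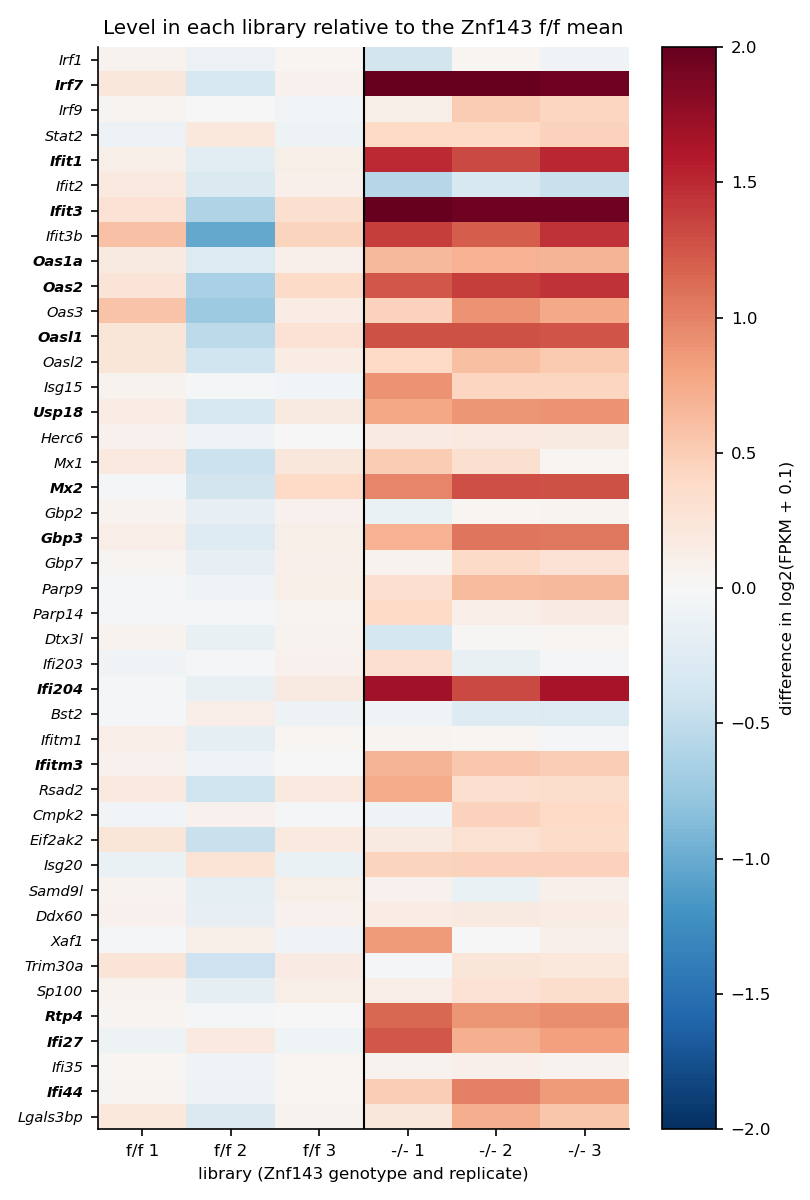
Level of each member in each of the 6 libraries as the difference in log2(FPKM + 0.1) from the mean of the *Znf143 f/f* libraries, with called members in bold. The second *Znf143 f/f* library is the palest or bluest of its genotype in most rows, being the lowest of the 6 in 30 of 43 members.

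The regulators did not move as a block. *Irf7*, the transcription factor that amplifies interferon production and is itself induced by ISGF3, was at 7.05, 4.79 and 6.41 FPKM in the *Znf143 f/f* libraries and at 24.2, 24.9 and 23.4 FPKM in the *Znf143 -/-* libraries. The genotypes were far apart, and the ratio of means was 3.97. Its log2 fold change was 1.99 ± 0.15 (SE, adjusted p = 0.0016), and 2.07 ± 0.23 (adjusted p = 0.035) with the close pairs averaged. *Irf7* lies on chromosome 7 at 141262706 to 141266481 on the - strand (GRCm38).

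*Irf9* and *Stat2*, which are part of ISGF3, were higher in every *Znf143 -/-* library but were not called. *Irf9* was at 13.5, 13.0 and 12.6 FPKM against 14.2, 18.6 and 17.5 FPKM, a log2 fold change of 0.35 ± 0.12 (SE, adjusted p = 0.159). *Stat2* was at 2.46, 3.11 and 2.46 FPKM against 3.52, 3.54 and 3.72 FPKM, a log2 fold change of 0.42 ± 0.14 (SE, adjusted p = 0.143). *Irf1*, which is induced by both types of interferon and activates transcription, was at 19.5, 17.2 and 19.0 FPKM against 14.3, 19.1 and 17.6 FPKM. The libraries of the genotypes overlapped, and its log2 fold change was -0.13 with a 95% interval from -0.44 to 0.18.

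The IFIT genes, which encode proteins that bind foreign RNA and hinder its translation, lie side by side on chromosome 19 between 34550694 and 34650009, and 2 of the 4 rose. *Ifit1* was at 3.53, 2.77 and 3.53 FPKM in the *Znf143 f/f* libraries and at 9.33, 8.33 and 9.45 FPKM in the *Znf143 -/-* libraries, a log2 fold change of 1.44 ± 0.14 (SE, adjusted p = 0.00355). *Ifit3* was at 1.16, 0.572 and 1.17 FPKM against 4.27, 3.83 and 3.84 FPKM, a log2 fold change of 1.99 ± 0.27 (SE, adjusted p = 0.0111). In both genes every *Znf143 -/-* library was above every control, and the second *Znf143 f/f* library was the lowest of the 6. With the close pairs averaged their adjusted p-values were 0.0795 and 0.0945.

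*Ifit3b*, whose reads may be split with *Ifit3* because the treatment of reads that fit several genes was not given in the sources used here, rested on 11 to 118 fragments per library. It was between 0.102 and 0.518 FPKM in the controls and between 0.858 and 1.02 FPKM in the *Znf143 -/-* libraries (log2 fold change 1.35, adjusted p = 0.133). *Ifit2* went the other way within the same cluster. It was between 3.45 and 4.90 FPKM in the *Znf143 f/f* and between 2.83 and 3.41 FPKM in the *Znf143 -/-* libraries, with no overlap and a log2 fold change of -0.44 (adjusted p = 0.184). Without the second *Znf143 f/f* library *Ifit2* was called lower. The difference between *Ifit2* and its neighbours was not tested.

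**Figure D3:**
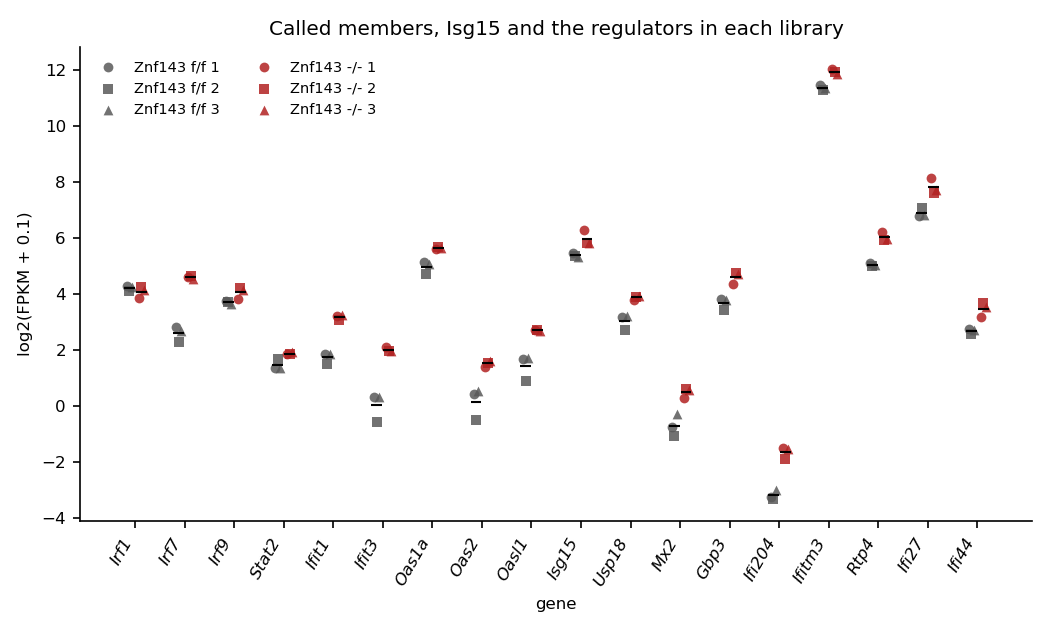
Level of the 14 called members, of *Isg15* and of the other regulators (*Irf1*, *Irf9*, *Stat2*) as log2(FPKM + 0.1) in each library, grey for *Znf143 f/f* and red for *Znf143 -/-*, with the mean of each genotype as a line. In the called members the red points lie above all grey points, while those of *Irf1* overlap.

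The OAS genes encode enzymes that make oligoadenylates in the presence of double-stranded RNA, or inactive relatives of these, and 3 of 5 rose. *Oas1a* was at 35.6, 26.1 and 33.7 FPKM in the *Znf143 f/f* libraries and at 49.3, 51.2 and 50.4 FPKM in the *Znf143 -/-* libraries, a log2 fold change of 0.67 ± 0.13 (SE, adjusted p = 0.0355). *Oas2* was at 1.25, 0.615 and 1.37 FPKM against 2.57, 2.84 and 2.96 FPKM, a log2 fold change of 1.36 ± 0.29 (SE, adjusted p = 0.0454). *Oasl1*, a relative that represses translation of *Irf7* mRNA, was at 3.11, 1.79 and 3.23 FPKM against 6.51, 6.49 and 6.40 FPKM, a log2 fold change of 1.27 ± 0.23 (SE, adjusted p = 0.0277).

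In these 3 genes the *Znf143 -/-* libraries lay close together, and the controls were spread out by the low second library. *Oasl2* was also higher without overlap, at 7.29 to 11.4 against 12.8 to 14.6 FPKM, but was not called (log2 fold change 0.51, adjusted p = 0.163). *Oas3* was at 1.02 to 2.65 against 2.44 to 3.36 FPKM, with overlap (log2 fold change 0.70, adjusted p = 0.268). *Oas1a*, *Oas2* and *Oas3* lie within 1 cluster on chromosome 5 (120730333 to 120907521), and *Oasl1* and *Oasl2* lie within another (114896936 to 114937915). Reads of *Oas1a* may be shared with its close copy *Oas1g*, which was at 4.12 FPKM on average in the controls and 7.23 FPKM in the *Znf143 -/-* libraries (log2 fold change 0.84, adjusted p = 0.0889).

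The ISG15 system attaches the ubiquitin-like protein ISG15 to other proteins. *Usp18*, which removes ISG15 and restrains IFNAR signaling, was at 8.95, 6.45 and 9.13 FPKM in the *Znf143 f/f* libraries and at 13.9, 15.0 and 15.2 FPKM in the *Znf143 -/-* libraries. Its log2 fold change was 0.86 ± 0.15 (SE, adjusted p = 0.0279). *Isg15* was at 43.8, 41.3 and 40.4 FPKM against 78.1, 56.5 and 56.5 FPKM. All *Znf143 -/-* libraries were above all controls, the first of them by the most, and the log2 fold change of 0.59 ± 0.14 (SE) was not called with an adjusted p of 0.0692. It was called with the FPKM as deposited. *Herc6*, the ligase that attaches ISG15 in mouse, differed little, with 1.80 to 2.05 against 2.16 to 2.21 FPKM (log2 fold change 0.18, adjusted p = 0.475).

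The Mx genes encode dynamin-like GTPases that trap viral nucleoproteins and lie next to each other on chromosome 16. *Mx2* was at 0.502, 0.384 and 0.722 FPKM in the *Znf143 f/f* libraries and at 1.13, 1.42 and 1.40 FPKM in the *Znf143 -/-* libraries (log2 fold change 1.18 ± 0.24 SE, adjusted p = 0.0436). *Mx1* rested on 43 to 88 fragments per library, with 0.218 to 0.401 against 0.341 to 0.507 FPKM and an adjusted p of 0.587. Laboratory strains such as C57BL/6 are known to carry a defective *Mx1*. The annotation used here (GENCODE M21) lists *Mx2*, the member that rose, as a polymorphic pseudogene.

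The guanylate-binding proteins are GTPases that attack the membranes of intracellular pathogens, and 1 of the 3 genes of the cluster on chromosome 3 rose. *Gbp3* was at 14.0, 10.7 and 13.8 FPKM in the *Znf143 f/f* libraries and at 20.7, 26.8 and 26.5 FPKM in the *Znf143 -/-* libraries, a log2 fold change of 0.94 ± 0.16 (SE, adjusted p = 0.023). *Gbp2* was at 20.8 to 24.9 against 21.2 to 24.2 FPKM, with a log2 fold change of -0.02 (95% interval -0.28 to 0.25) that turned positive with the FPKM as deposited. *Gbp7* was at 12.5 to 15.0 against 14.7 to 18.3 FPKM (log2 fold change 0.25, adjusted p = 0.302). *Gbp2* and *Gbp3* both hold the ISRE core in the stretches shown above, and as close copies they may share reads.

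None of the 3 genes of the PARP and DTX3L group was called, and 1, *Parp9*, had an unadjusted p under 0.05. PARP9 and DTX3L form a complex that ubiquitinates histones, and their genes lie on opposite strands with starts 681 bases apart and overlapping 5′ ends. *Parp9* was at 6.29 to 7.28 FPKM in the controls and at 8.47 to 10.6 FPKM in the *Znf143 -/-* libraries, without overlap (log2 fold change 0.54, adjusted p = 0.0665), and it was called with median-of-ratios scaling. *Dtx3l* was at 6.98 to 8.15 against 6.02 to 7.91 FPKM (log2 fold change -0.10, adjusted p = 0.729). *Parp14*, an ADP-ribosyltransferase of the same locus, was at 1.35 to 1.44 against 1.52 to 1.86 FPKM (log2 fold change 0.23, adjusted p = 0.419). Because the libraries did not keep strand, reads at the overlap of neighbouring genes cannot be told apart.

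The PYHIN genes *Ifi204* and *Ifi203*, which encode relatives of DNA sensors, lie within 1 cluster on chromosome 1 and differed in level by far. *Ifi204* was at 0.0073, 0 and 0.0253 FPKM in the *Znf143 f/f* libraries and at 0.254, 0.174 and 0.247 FPKM in the *Znf143 -/-* libraries. It rested on 5 fragments in all controls together and on 124 in the *Znf143 -/-* libraries, a ratio of 22.1 after scaling (exact 95% interval 9.23 to 69.4, counting error only). On log2(FPKM + 0.1) the fold change was 1.55 ± 0.30 (SE, adjusted p = 0.0343), a scale that understates the change of so low a gene. With no minimum level, so that all 23116 genes were tested, the adjusted p of *Ifi204* was 0.0129. It was called in 8 of the 18 alternatives. It was not called with a pseudocount of 0.01, nor with the close pairs averaged (adjusted p = 0.391). Because *Ifi204* reached the minimum level in the main fit through the *Znf143 -/-* libraries alone, its call is no support. *Ifi203* was at 15.6 to 17.4 against 14.8 to 20.7 FPKM, with overlap (log2 fold change 0.05, adjusted p = 0.88). As close copies, these genes may also share reads.

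The membrane proteins were the most abundant members. *Ifitm3*, which blocks fusion of viruses with endosomes, was at 2816, 2516 and 2632 FPKM in the *Znf143 f/f* libraries and at 4251, 3858 and 3722 FPKM in the *Znf143 -/-* libraries. It rose by a log2 fold change of 0.57 ± 0.12 (SE, adjusted p = 0.047), and was not called with median-of-ratios scaling. *Ifitm1*, its neighbour on chromosome 7, was at 2840, 2283 and 2647 FPKM against 2673, 2664 and 2511 FPKM, and the genotypes overlapped. Its log2 fold change was 0.02 with a 95% interval from -0.28 to 0.32, and its sign turned with median-of-ratios scaling. *Bst2*, which tethers budding virus particles to the cell, was at 197, 223 and 189 FPKM against 192, 170 and 167 FPKM (log2 fold change -0.20, 95% interval -0.45 to 0.04). It holds 2 overlapping copies of the ISRE core shown above.

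Of the 10 other effectors, *Rtp4* rose, and the other 9 were not called. *Rtp4*, a chaperone of chemosensory receptors that also restricts viruses, was at 34.3, 32.2 and 33.1 FPKM in the *Znf143 f/f* libraries and at 74.0, 61.1 and 63.2 FPKM in the *Znf143 -/-* libraries. That is a log2 fold change of 0.99 ± 0.10 (SE, adjusted p = 0.00481), or 1.04 ± 0.19 (adjusted p = 0.112) with the close pairs averaged.

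*Isg20*, an exonuclease of RNA, was higher in every *Znf143 -/-* library, at 36.5 to 48.5 against 54.4 to 55.3 FPKM (log2 fold change 0.45, adjusted p = 0.0996). *Rsad2*, which makes a chain-terminating nucleotide, was at 2.38 to 3.66 against 4.05 to 5.37 FPKM (log2 fold change 0.48, adjusted p = 0.237). Its neighbour *Cmpk2*, a nucleotide kinase, was at 4.31 to 4.78 against 4.25 to 6.27 FPKM, with overlap (log2 fold change 0.26, adjusted p = 0.414). *Xaf1*, a promoter of apoptosis, was at 11.5 to 13.2 FPKM in the controls, and at 22.1 FPKM in the first and 12.2 and 13.1 FPKM in the other *Znf143 -/-* libraries, so that its log2 fold change of 0.32 rested on 1 library.

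The remaining 5 had log2 fold changes between 0.02 and 0.28. They were *Eif2ak2*, the RNA-activated kinase PKR, at 0.28, *Sp100*, a nuclear body protein, at 0.26, *Ddx60*, an RNA helicase, at 0.16, *Trim30a*, a ubiquitin ligase, at 0.15, and *Samd9l*, which restrains growth of hematopoietic cells, at 0.02. *Ddx60* and *Sp100* did not overlap between genotypes, whereas *Eif2ak2*, *Trim30a* and *Samd9l* did.

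Of the 4 members with less defined products, 2 rose. *Ifi27*, which encodes a small mitochondrial protein, was at 111, 136 and 113 FPKM in the *Znf143 f/f* libraries and at 282, 197 and 210 FPKM in the *Znf143 -/-* libraries (log2 fold change 0.92 ± 0.16 SE, adjusted p = 0.0257), and was not called with median-of-ratios scaling. *Ifi44* was at 6.60, 5.92 and 6.48 FPKM against 8.98, 12.8 and 11.6 FPKM (log2 fold change 0.79 ± 0.15 SE, adjusted p = 0.0341). The first *Znf143 -/-* library was the highest of its genotype for *Ifi27* and the lowest for *Ifi44*. *Lgals3bp*, a secreted glycoprotein, was at 140, 98.1 and 127 FPKM against 141, 198 and 177 FPKM, without overlap (log2 fold change 0.50 ± 0.18 SE, adjusted p = 0.163). *Ifi35*, which forms a complex with NMI, was at 54.6 to 58.9 against 60.1 to 61.6 FPKM (log2 fold change 0.08, adjusted p = 0.601).

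Within every cluster of neighbouring members with a call, at least 1 member was not called. *Ifit1* and *Ifit3* rose beside *Ifit2* and *Ifit3b*, *Gbp3* beside *Gbp2* and *Gbp7*, *Ifitm3* beside *Ifitm1*, *Ifi204* beside *Ifi203*, *Mx2* beside *Mx1*, *Oasl1* beside *Oasl2*, and *Oas1a* and *Oas2* beside *Oas3*. The differences between neighbours were not tested, and the call of *Ifi204* is no support, as given above.

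The levels of the members were wide apart. Over all 6 libraries, and so over both genotypes, the mean was under 1 FPKM in 4 members and from 1 to 10 in 18. It was from 10 to 100 in 16 and over 100 in 5, with the extremes at 0.118 FPKM (*Ifi204*) and 3299 FPKM (*Ifitm3*). In the *Znf143 f/f* libraries alone the means of *Ifi204* and *Ifitm3* were 0.0108 and 2654 FPKM. The second *Znf143 f/f* library was the lowest of all 6 in 30 of 43 members, where it was so in 31.4% of all tested genes, and lowest of its genotype in 33, where it was so in 55.3%. The first *Znf143 -/-* library was the lowest of its genotype in 25 members and the highest in 14, where it was so in 54.6% and 35.7% of all tested genes.

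The wider interferon response was described with 51 further interferon-induced genes, of which 50 were in the table (all but *Ifi211*) and 48 were tested, *Ifi207* and *Ifi209* being below the minimum level. Of these, 8 rose (16.7%) and none fell, where 2.81% of all tested genes were called higher and 2.38% lower. At an unadjusted p under 0.05, 22 were higher and 0 lower, where 12.5% and 9.99% of all tested genes were. The median log2 fold change was 0.35. *Ifi213*, 1 of the 22, and *Ifi44l* reached the minimum level through the *Znf143 -/-* libraries alone, so they are no support. The 8 that rose were the RNA sensor *Dhx58* (log2 fold change 0.73), the nucleic acid sensor *Zbp1* (0.95), *Phf11b* (0.61) and *Phf11d* (0.84), *Ly6a* (1.16), *Ly6e* (0.69), *Epsti1* (0.42) and *Apol9b* (1.30). *Ly6a* was at 287, 218 and 268 FPKM in the *Znf143 f/f* libraries and at 561, 596 and 555 FPKM in the *Znf143 -/-* libraries. Its product Sca-1 is part of the gate in both genotypes, and the part of the sort in this difference was not tested. None of the 8 was called with the close pairs averaged. Genes of antigen presentation, which both types of interferon induce, showed small differences, with *B2m* at -0.06, *Psmb8* at 0.05, *Psmb9* at -0.01 and *Tap1* at 0.21 on the log2 scale, none of them called.

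**Figure D4:**
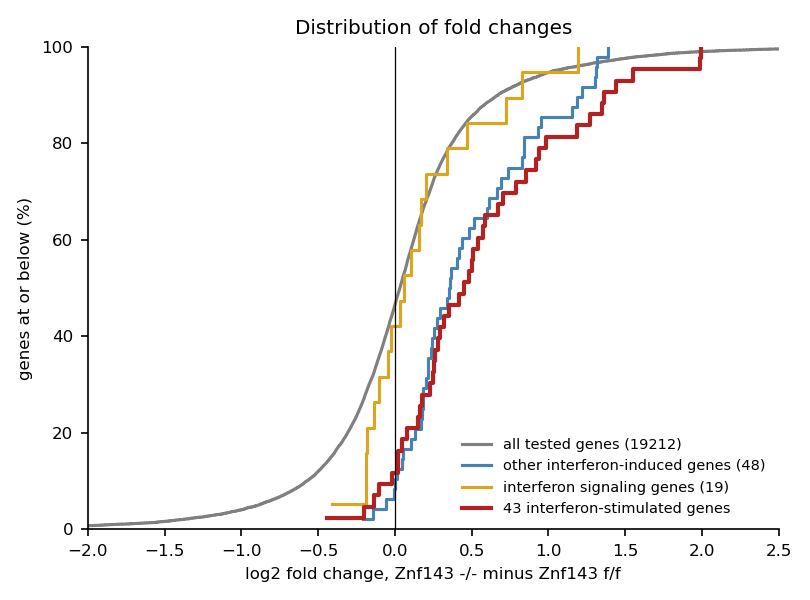
Cumulative share of genes (%) by log2 fold change (*Znf143 -/-* minus *Znf143 f/f*) for the 43 members, 48 other interferon-induced genes, 19 interferon signaling genes and all 19212 tested genes, with values beyond the axis not shown. The medians are 0.45, 0.35, 0.06 and 0.03. *Ifi213* and *Ifi44l* among the 48, and *Ifi204* among the 43, reached the minimum level through the *Znf143 -/-* libraries alone.

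The receptor, kinases and ligands upstream were listed apart. Of 27 such genes, 19 were in the table and tested, and the ligand genes *Ifnb1*, *Ifna1*, *Ifna2*, *Ifna4*, *Ifne*, *Ifnk* and *Ifng* and the receptor gene *Ifnlr1* had no row under these symbols, so they are not analysed here. Of the 19, 1 fell and none rose, where 2.38% of all tested genes were called lower and 2.81% higher. At an unadjusted p under 0.05, 5 were higher and 1 lower, where 12.5% and 9.99% of all tested genes were. The median log2 fold change was 0.06. *Irf3*, which switches on interferon genes once nucleic acids are sensed, was at 22.2, 22.3 and 21 FPKM in the *Znf143 f/f* libraries and at 15.9, 17.3 and 16.1 FPKM in the *Znf143 -/-* libraries. It fell by 0.41 on the log2 scale (SE 0.09, adjusted p = 0.049), but it was not called with the FPKM as deposited nor with the close pairs averaged (adjusted p = 0.559).

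The receptor chains were not called. *Ifnar1* was at 4.63 to 6.67 against 6.44 to 8.85 FPKM (log2 fold change 0.47, adjusted p = 0.2), and *Ifnar2* was at 21.9 to 25.1 against 27.8 to 30.7 FPKM (log2 fold change 0.34, adjusted p = 0.0992). Neither were the kinases *Jak1* (log2 fold change -0.19) and *Tyk2* (0.17).

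Markers of other cell types were compared in the same libraries, since several of these types express interferon-stimulated genes. Of all tested genes, 2.81% were called higher and 2.38% lower, and 15.8% and 13.5% did not overlap in these directions. Of 8 granulocyte genes, 4 rose, namely *Ngp*, *Camp*, *S100a8* and *Elane*. The summed level of the 8 was 182.6 to 267 FPKM in the *Znf143 f/f* and 271 to 399 FPKM in the *Znf143 -/-* libraries. Most of it was *Prtn3*, which was not called (log2 fold change 0.06). Of 4 genes of multipotent progenitors, *Flt3* (log2 fold change 1.62) and *Cd48* (1.00), which encodes an antigen the gate leaves out, rose, and the sum was 48.4 to 50.2 against 67.9 to 78.1 FPKM. Of 12 stem cell genes, *Mecom* fell and *Ly6a* rose, 9 had a log2 fold change below 0, and the median was -0.19. *Kit*, *Hlf*, *Mecom*, *Mllt3* and *Gata2* were lower without overlap, and *Ly6a* was higher. The sum was 502 to 612 against 780.0 to 883 FPKM with *Ly6a*, and 285 to 325 against 219 to 287 FPKM without it.

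Of the monocyte and macrophage genes, 6 of 8 had a row and 4 were tested. *Csf1r* was at most at 0.0138 FPKM in the controls and between 0.172 and 0.267 FPKM in the *Znf143 -/-* libraries. It was called higher, but reached the minimum level through the *Znf143 -/-* libraries alone. Of the 4 tested, *Csf1r*, *Cd68* and *Ccr2* were higher without overlap and *Lyz2* was lower. *Cd68* was at 15.4 to 17.8 against 18.1 to 20.3 FPKM and was not called. *Ccr2* was at 0.052 to 0.0965 against 0.221 to 0.367 FPKM and was not called. It also reached the minimum level through the *Znf143 -/-* libraries alone. *Mrc1*, not tested, was at most at 0.0041 FPKM in the controls and between 0.0857 and 0.103 FPKM in the *Znf143 -/-* libraries. The sum was 534 to 575 against 421 to 453 FPKM, most of it *Lyz2*, which was not called. Of 6 genes of plasmacytoid dendritic cells, the main producers of type I interferon, 3 had a row. *Ccr9* and *Spib* were under 0.5 FPKM in every library, and the sum was 0.0282 to 1.01 against 0.116 to 0.643 FPKM.

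*Cd79a* and *Ebf1* of the B lineage and *Cd3e*, *Cd3g*, *Cd4* and *Klrd1* of the T and NK lineages were likewise under 0.5 FPKM in every library, with *Cd3g* and *Klrd1* at 0 in all controls. The sum over 5 of 8 B-lineage genes was 42.4 to 46.9 against 41.7 to 44.5 FPKM, most of it *Cd79b*. That over 6 of 8 T and NK genes was 111 to 130 against 208 to 243 FPKM, most of it *Nkg7*, which rose. The 7 erythroid genes summed to 68.1 to 214 against 64.4 to 65.8 FPKM. The 214 rested on *Car1*, at 129 FPKM in the second and 15.0 and 21.7 FPKM in the other *Znf143 f/f* libraries. The 6 megakaryocyte genes summed to 494 to 623 against 686 to 945 FPKM, most of it *Pf4*. None of these 13 was called. At an unadjusted p under 0.05, 5 megakaryocyte genes were higher, also without overlap, and 0 lower. Of the erythroid genes 1 was higher and 2 lower, where 12.5% and 9.99% of all tested genes were. The part of progenitor, granulocyte or monocyte transcripts in the higher level of the interferon-stimulated genes was not tested.

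The promoter windows were also searched for other elements. The core was in 5 of the 8 called members with an entry and in 12 of the 26 not called. The other called members with an entry, *Irf7*, *Oasl1* and *Ifi44*, held no core in their windows. The gamma-activated site, TTC followed after any 3 bases by GAA, was in 9 of 34 (26.5%), where 9.55% of all genes held it. The core of the ZNF143 motif, CCCA followed after any 2 bases by ATGC, was in 1 of 34, *Isg20*, where 2.16% of all genes held it. A match of letters is a description of the window and shows no binding.

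**Figure D5:**
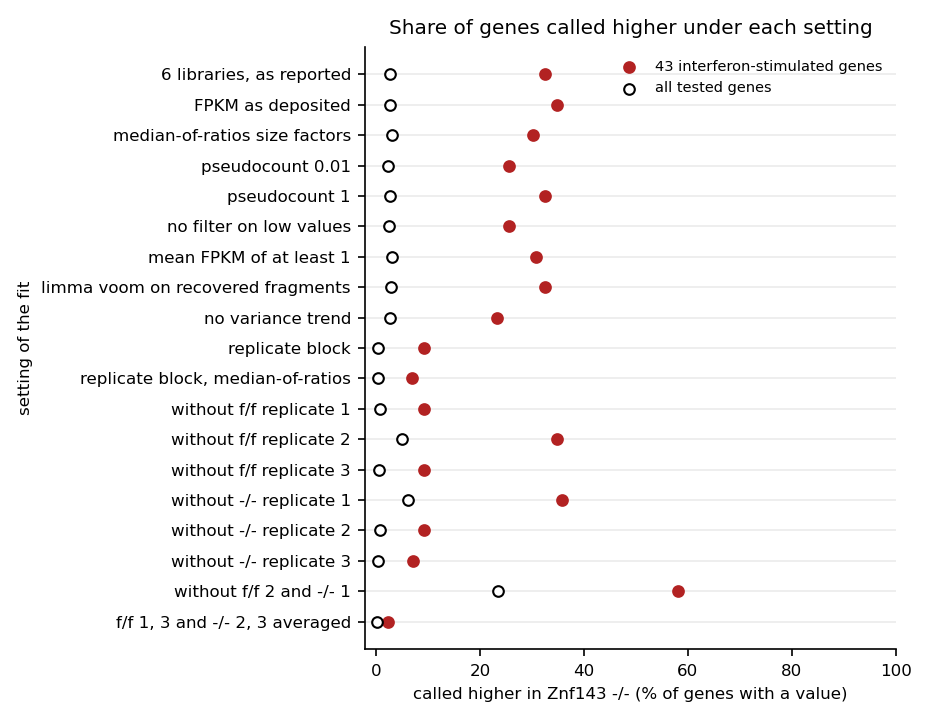
Share of genes called higher in *Znf143 -/-* (%, adjusted p under 0.05) under the reported fit and 18 alternatives, for the 43 members (red) and for all tested genes (open), where f/f and -/- stand for the genotypes and numbers for the libraries. The members' share lies between 2.33% with the close pairs averaged and 58.1% without the 2 libraries that stand apart, and in each setting it is above the share of all tested genes.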

How the data were processed

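The 6 RNA-seq libraries of HSLAM cells (3 per genotype) were analysed from a single table of genes. The ChIP-seq and HiC data are not analysed here. RNA with an integrity number above 8 was amplified with the SMART-Seq v4 kit, which primes on poly(A) and keeps no strand, and made into Nextera XT libraries for 76-base paired-end reads. The authors used TrimGalore for trimming, STAR for alignment to GRCm38, FeatureCounts for counting and DESeq2 for their test (the handling of multi-mapped reads is not given in the sources used here). The authors deposited FPKM for each library, and also the mean count, log2 fold change, standard error, statistic and p-values of their own comparison, which were not used. No filter of the authors on low values was stated.

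Fragments were recovered from FPKM times gene length, and 138675 of 138696 values (99.985%) were within 0.05 of a whole number. The third *Znf143 -/-* library had been divided by the total of the second (48378188 in place of about 57895793), so its FPKM were multiplied by 0.836. All levels are in FPKM with this correction, and the values as deposited are an alternative. A gene was tested if its mean over the 6 libraries reached 0.1 FPKM. The test was limma 3.58.1 under R 4.3.3 (lmFit, eBayes with a variance trend, no block) on log2(FPKM + 0.1), adjusted by the Benjamini-Hochberg method and called at 0.05. Folds on this scale understate the change of low genes. A two-sided exact permutation test of 3 against 3 libraries cannot go below 0.1, the value reached by each member that did not overlap. Coordinates are from GENCODE M21 (43 of 43 members matched) and promoter windows from RefSeq (GRCm38.p6). Other steps ran in Python 3.11.15 (scipy 1.17.1, pandas 2.3.3, numpy 2.4.6), with plots by matplotlib 3.10.9.

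The members, gene lists and tests were chosen with earlier results of these data known. Values in every library are given for members that were called here or as deposited, for *Irf1*, *Irf7*, *Irf9* and *Stat2*, for the 5 most abundant members, for the 5 with the largest fold among those of at least 1 FPKM, and for *Zfp143*. Of the other lists, called genes and *Ifnar1*, *Ifnar2*, *Jak1* and *Tyk2* are named. Some single genes of these lists are not reported here. The antigen presentation genes, *Oas1g* and markers named beyond this rule were chosen after their values were seen. Correlations of members across libraries are not given because the libraries fall into separate groups. The alternatives were FPKM as deposited, median-of-ratios scaling, pseudocounts of 0.01 and 1, no filter or at least 1 FPKM, limma's voom on recovered fragments, no variance trend, the replicate number as a block with and without that scaling, and each library left out. Leaving out both libraries that stand apart, and averaging each close pair, were added after the data were seen.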

Additional observations from a re-analysis of the deposited data

How the results depend on the processing

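The members called higher (14 of 43) numbered 10 to 15 under the scaling, pseudocount, filter, voom and trend alternatives, and 3 to 15 with 1 library left out, namely 4 without the first, 15 without the second and 4 without the third *Znf143 f/f* library, and 15, 4 and 3 without the first, the second and the third *Znf143 -/-* library. Without both libraries that stand apart 25 members were called higher and 2 lower, and with each close pair averaged 1 higher. One library left out gave 0 to 1 members called lower. The members' median log2 fold change of 0.45 became 0.33 with a pseudocount of 1, which shrinks low genes by construction. Without the second *Znf143 f/f* library it was 0.35, and with any other single library left out it was 0.41 to 0.45. *Irf7* was called in all 18 alternatives, *Ifit1* in 17 and *Ifit3* and *Rtp4* in 16 each. The remaining called members held less often. *Oasl1*, *Usp18* and *Gbp3* were called in 11, *Oas1a* and *Ifi27* in 10, and *Ifi44* in 9. *Mx2* and *Ifi204* were called in 8, and *Oas2* and *Ifitm3* in 7. Each of these was called in only 1 or 2 of the 6 fits with 1 library left out. *Ifi204* was below the minimum level, and so not tested, without the first or the third *Znf143 -/-* library and at a minimum of 1 FPKM.

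Deviations of same-numbered libraries from their genotype means correlated at -0.10, -0.09 and 0.04 over 19212 genes. This shows no pairing by replicate number but cannot exclude it, because the 2 libraries that stand apart carry different numbers. The methods speak of littermates but do not say which libraries form a pair. With the replicate number as a block, 4 members were called (3 with median-of-ratios scaling as well), 175 of all genes (186), and none of the other interferon-induced and of the signaling genes.

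All genes called (997) numbered 189 to 1899 with 1 library left out, 8106 without both that stand apart and 67 with the pairs averaged. The other interferon-induced genes called (8) numbered 5 with a pseudocount of 0.01, 1 to 18 with 1 library left out, 31 without both and 0 with the pairs averaged. The signaling genes called (1) numbered 0 with the FPKM as deposited, with a pseudocount of 0.01, without the trend and with the pairs averaged, 0 to 3 with 1 library left out and 10 without both. The sign turned in genes close to 0. As deposited *Gbp2* was at 0.070. With median-of-ratios scaling, with or without the block, *Ifitm1* was at -0.0078 and *Samd9l* at -0.0098. Without both libraries that stand apart *Mx1* was at -0.028, *Ifi203* at -0.11, *Ifitm1* at -0.084 and *Samd9l* at -0.12. With 1 library left out, *Gbp2* ranged from -0.10 to 0.043, *Dtx3l* from -0.17 to 0.026, *Ifi203* from -0.096 to 0.15, *Ifitm1* from -0.068 to 0.089, *Samd9l* from -0.080 to 0.093 and *Trim30a* from -0.062 to 0.28. The cause of these turns was not tested. The shift of the median of all genes was 0.11 on the log2 scale as deposited and 0.01 with median-of-ratios scaling, beside 0.03 here. Depth limits *Ifi204*, *Mx1* and *Ifit3b*, with at most 118 fragments in any library.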
